A study of Mus musculus with 45 samples.

Results

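Nes, Slc1a3, Vim, Sox2, Sox9, Hopx, Fabp7 and Lpar1 are 8 genes by which radial glia-like neural stem cells of the adult dentate gyrus (DG) are commonly recognised. They were chosen by name, as known genes of these cells and with earlier results of these data known, and make up 8 of the 49922 gene symbols that stand once in both unfiltered expression tables. All 8 were measured in every group and passed the filter on low values, a mean of at least 10 normalized counts, in every comparison made here.

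The study profiled neural stem cells (NSCs) and intermediate progenitor cells (IPCs) sorted from the mouse DG, and whole DG tissue, by low-input RNA sequencing, in untreated mice and 4 h after lateral fluid percussion injury (LFPI), a model of traumatic brain injury. All mice were 6 to 9 weeks old, of strain C57Bl6J, and by the labels NestinGFP, which means that they carry GFP under the control of Nestin sequences. Live cells negative for the endothelial antigen CD31, the leukocyte antigen CD45 and the oligodendroglial antigens O1 and O4 were gated as NSCs if positive for GFP and for GLAST, and as IPCs if positive for GFP and negative for GLAST. GLAST is the protein that Slc1a3 encodes, so Slc1a3 and Nes were tied to the sort itself.

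The untreated mice gave NSCs and IPCs from the same 3 animals, with 3 technical replicates of 300 cells per animal and population, and whole DG from 3 other animals. One place in the study's text calls these 3 animals wild type. The LFPI experiment used the DG on the side of the injury, which the labels call TBI. It gave NSC libraries of 3 LFPI and 2 sham mice, IPC libraries of 3 LFPI and 3 sham mice and whole DG libraries of 3 further LFPI and 3 further sham mice, with 1 library per mouse. In sham mice no pressure pulse was delivered. The study's methods give different kits and RNA inputs for sorted cells and whole DG, so cell source and library preparation cannot be told apart. The library codes in the column headings, described below, differ between sorted cells and whole DG only in the LFPI experiment. In bulk libraries, fewer cells of a type and less RNA per cell cannot be told apart either.

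Radial glia-like NSCs carry a process across the granule cell layer and share much of their gene expression with astrocytes. They give rise to IPCs, which lose glial genes as they commit to the granule neuron lineage. Slc1a3 and Fabp7 serve glial transport, Vim and Nes build intermediate filaments, Sox2 and Sox9 are transcription factors of the SRY-box family, Hopx is an atypical homeodomain protein found in quiescent stem cells, and Lpar1 is a receptor for lysophosphatidic acid.

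On GRCm38, GENCODE M21 places the 8 genes on 7 chromosomes, with Nes at chr3:87971078-87980451 (+) and Sox2 at chr3:34650405-34652461 (+) sharing 1 of them. Slc1a3 lies at chr15:8634124-8710764 (-), Vim at chr2:13573927-13582826 (+) and Sox9 at chr11:112782224-112787760 (+). Hopx lies at chr5:77086988-77115121 (-), Fabp7 at chr10:57784881-57788450 (+) and Lpar1 at chr4:58435255-58553898 (-).

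RefSeq promoter sequence on GRCm38.p6 was matched for 7 of the 8 genes. It is shown for Hopx and for Slc1a3 and Fabp7, the members whose correlation with Hopx was above 0.5 over the sorted libraries of both experiments, as given at the end. Sox9, which had 0.55 and 0.42 with Hopx, is the gene that was not matched. The bases upstream of the annotated start are given 5′ to 3′ on the gene's strand, up to the first GENCODE exon base. They span chr15:8710808-8711057 (-) for Slc1a3, chr5:77115124-77115373 (-) for Hopx and chr10:57784673-57784880 (+) for Fabp7. A further RefSeq promoter of Hopx, at chr5:77095278-77095517 (-) with 57.5% G and C, is not shown. Capitals mark matches on either strand to the CCAAT box (CCAAT), the TATA box (TATAAA) and the GC box (GGGCGG).
Slc1a3: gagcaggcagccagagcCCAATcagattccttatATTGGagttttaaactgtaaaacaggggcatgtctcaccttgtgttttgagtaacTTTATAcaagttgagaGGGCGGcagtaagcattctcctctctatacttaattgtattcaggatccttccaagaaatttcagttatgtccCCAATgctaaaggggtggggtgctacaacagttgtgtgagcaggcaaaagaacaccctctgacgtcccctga
Hopx: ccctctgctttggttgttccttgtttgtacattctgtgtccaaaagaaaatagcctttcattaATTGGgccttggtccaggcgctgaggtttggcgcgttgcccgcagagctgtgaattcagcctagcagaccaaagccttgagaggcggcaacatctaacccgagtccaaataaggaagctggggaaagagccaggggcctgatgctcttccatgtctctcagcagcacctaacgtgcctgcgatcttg
Fabp7: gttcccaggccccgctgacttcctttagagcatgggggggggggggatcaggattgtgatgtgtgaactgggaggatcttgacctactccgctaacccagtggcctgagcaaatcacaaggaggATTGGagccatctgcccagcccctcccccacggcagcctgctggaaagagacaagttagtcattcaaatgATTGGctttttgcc
The Slc1a3 sequence, 44.8% G and C, held 3 CCAAT matches, 1 TATAAA match and 1 GGGCGG match. The Hopx sequence, 52.4% G and C, held 1 CCAAT match, and the Fabp7 sequence, 56.2% G and C, held 2. Of 32851 RefSeq promoters searched over the same 250 bases, 33.8% held CCAAT, 12.4% TATAAA and 32.7% GGGCGG, so a CCAAT match in all 3 is a description of these windows and no more.

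In untreated mice the glial members were abundant and the transcription factors and Nes were scarce. In CPM, the reads of a gene as a share of all reads in genes on the usual scale, divided by the kilobases of its exons (CPM per kb), Fabp7 was highest in NSCs at 229.7 ± 82.0 (SD, n = 3 mice here and below), followed by Hopx at 160 ± 80.7, Slc1a3 at 91.1 ± 30.6 and Vim at 57.7 ± 2.40. Sox9 followed at 12.5 ± 3.86, then Lpar1 at 5.82 ± 4.46, Nes at 4.03 ± 0.406 and Sox2 at 3.92 ± 1.19. In that order the ranges over mice of Fabp7 and Hopx overlapped, as did those of Hopx and Slc1a3 and those of Sox9, Lpar1, Nes and Sox2 with their neighbours, whereas Slc1a3, Vim and Sox9 did not overlap one another. IPCs began with the same 5 genes, from Fabp7 at 157 ± 49.9 to Sox9 at 10.00 ± 3.77 CPM per kb, and ended with Sox2 at 5.09 ± 1.8, Lpar1 at 2.90 ± 1.66 and Nes at 1.43 ± 0.750, each overlapping its neighbour. Whole DG began with Slc1a3 at 152 ± 7.86 CPM per kb, ahead of Hopx at 64.6 ± 1.39 and Fabp7 at 42.3 ± 8.03, and ended with Vim, Sox2 and Nes between 2.33 and 0.811, where among neighbours only Sox2 and Nes overlapped.

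**Figure D1:**
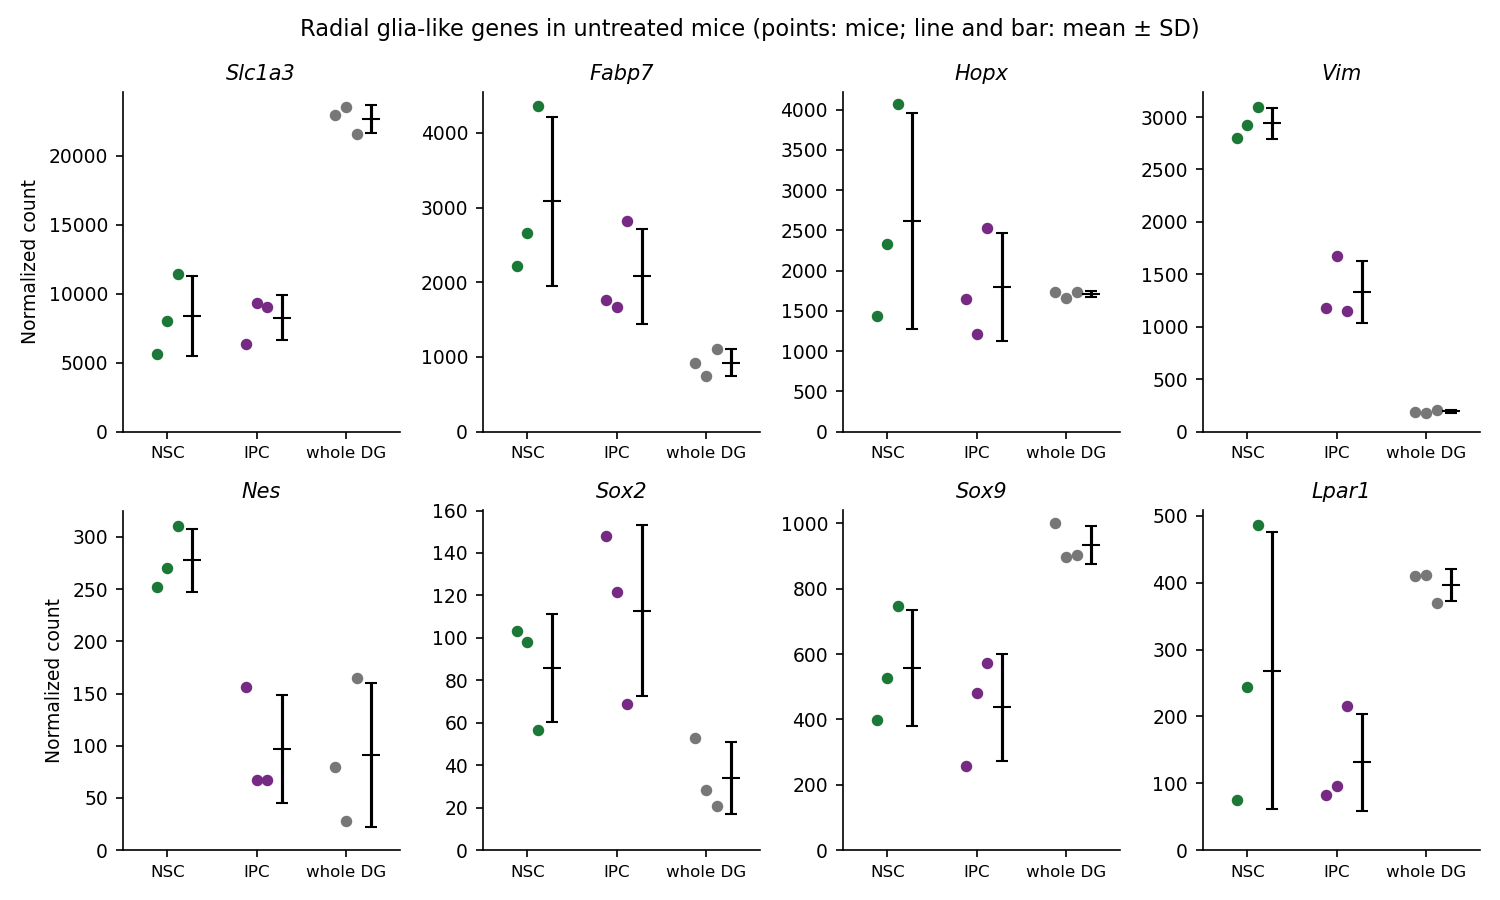
Normalized counts of the 8 genes in untreated mice, 1 panel per gene, with 1 point per mouse for NSCs, IPCs and whole DG and the mean ± SD beside the points (3 mice per group). Vim separates all 3 groups, Nes separates NSCs from the other 2, and Slc1a3 and Sox9 are highest in whole DG.

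NSCs and IPCs of untreated mice differed in 1 of the 8 genes, Vim, an intermediate filament of radial glia that is also made by endothelial and other mesenchymal cells. Its normalized counts in mice 1, 2 and 3 were 2805, 2920 and 3093 in NSCs and 1175, 1675 and 1155 in IPCs. Every NSC value lay above every IPC value, and the same held for the 9 single libraries of each population, with 2170 to 4257 in NSCs and 1056 to 2109 in IPCs. The log2 fold change was 1.16 ± 0.17 (SE, adjusted p = 0.0157, limma), higher in NSCs of 3 of 3 mice. Of 17638 genes tested, 288 passed both limits, an adjusted p under 0.05 and a log2 fold change of 1 or more in size, which is 1.63%, and 1.15% were higher in NSCs. In a fit of NSCs and IPCs alone that paired them by mouse, as a replicate block, Vim had an adjusted p of 0.169 and no gene of 16552 passed (2152 at an unadjusted p under 0.05). Vim also missed the threshold without the trend of the variance (adjusted p = 0.0585), in an unpaired fit of NSCs and IPCs alone (0.0914), and without mouse 1 (log2 fold change 1.11, adjusted p = 0.0613) or mouse 3 (1.03, adjusted p = 0.0852).

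Nes, the intermediate filament whose regulatory elements drive the reporter, also had higher values in each NSC sample but did not pass. NSCs of mice 1, 2 and 3 had 252, 270 and 311 normalized counts, and IPCs had 156, 66.8 and 67.3. The groups did not overlap, and the log2 fold change was 1.63 (95% interval 0.17 to 3.09, adjusted p = 0.241, limma). The share of all genes whose groups did not overlap was not counted, here or in the comparisons below. Single libraries overlapped widely, with 50.7 to 546 (median 235) normalized counts in NSCs and 0 to 205 (median 87.3) in IPCs.

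Slc1a3, the glutamate and aspartate transporter whose protein the NSC gate selects, had 5655, 8054 and 11394 normalized counts in NSCs and 6376, 9324 and 9048 in IPCs. Mouse 3 was the highest among NSCs, and the groups overlapped. The log2 fold change was -0.02 (95% interval -0.56 to 0.53, adjusted p = 0.996, limma). No difference of transcript was detectable between cells gated for and against the protein.

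The remaining 5 members overlapped between NSCs and IPCs. Fabp7, the brain lipid-binding protein of radial glia, had 2223, 2664 and 4365 normalized counts in NSCs and 1769, 1664 and 2815 in IPCs, a log2 fold change of 0.55 (95% interval -0.13 to 1.22, adjusted p = 0.392). Hopx had 1434, 2329 and 4072 in NSCs and 1647, 1209 and 2533 in IPCs, with a log2 fold change of 0.48 (95% interval -0.38 to 1.33). In both genes mouse 3 was the highest of its group, in NSCs and in IPCs alike. Sox9, which drives glial fate, had a log2 fold change of 0.38, Lpar1 of 0.79 and Sox2, which maintains stem cells, of -0.37, with adjusted p between 0.581 and 0.792 (limma). The median over the 8 genes was a log2 fold change of 0.51, against 0.00044 over all genes tested.

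Markers of other cell types moved with this comparison. Of 12 endothelial markers all 12 had a positive log2 fold change of NSCs over IPCs (median 1.53) and 2 passed the test, Ly6c1 and Ocln. Their summed level was 7029 to 8576 CPM over the 3 NSC mice, 2046 to 3824 CPM over the 3 IPC mice and 135 to 189 CPM in whole DG, and none was at 0 in a whole group. Cd93, a gene of endothelial and myeloid cells, had the pattern most like that of Vim over the 18 sorted libraries (r = 0.95). Of 9 microglial markers measured, 3 passed as higher in NSCs (median log2 fold change 3.45). Of 8 fibroblast and leptomeningeal markers, 2 passed as higher in NSCs (median 2.14), with a summed level of 401 to 868 CPM in NSCs, 152 to 313 CPM in IPCs and 418 to 459 CPM in whole DG, and such cells also make Vim. Of 10 pericyte and smooth muscle markers 2 passed as higher and 2 as lower in NSCs (median -0.64), and of 12 markers of intermediate progenitors and neuroblasts 3 passed as lower in NSCs (median -0.70). The part of these cells in the Vim result was not tested.

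The list of 20 other radial glia-like genes gave 1 call too. Of the 17 tested, 1 passed as higher in NSCs, Prom1, which encodes the stem cell antigen prominin, with 256 ± 28.7 CPM in NSCs and 67.7 ± 37.8 CPM in IPCs (log2 fold change 2.03, adjusted p = 0.0268, limma). The median of that list was a log2 fold change of 0.35, and none of 14 astrocyte markers passed in either direction (median -0.01).

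How well a single sort of 300 cells gave these levels differed between members. The coefficient of variation among technical replicates of a mouse, averaged over mice, was 19.8% for Vim in NSCs and 15.8% in IPCs, and 28.9% for Slc1a3 in NSCs and 15.8% in IPCs. For Nes it was 68.2% in NSCs and 93.6% in IPCs, and for Lpar1 86.3% in NSCs and 82.1% in IPCs. Between mice, after averaging, Nes varied by 10.8% in NSCs and 53.2% in IPCs, and Vim by 4.94% in NSCs and 22.0% in IPCs. Replicates of 1 mouse thus differed more in Nes than NSCs of different mice did once averaged.

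The CLEAR filter, by which the authors kept a gene in a library only where its reads were judged above the noise, fell on the same genes. Lpar1 kept a value in 7 of 9 NSC libraries and 5 of 9 IPC libraries, and Nes in 6 of 9 of each. Sox2 and Sox9 kept one in all 9 NSC libraries and 8 of 9 IPC libraries, and the other 4 genes in all 18. Technical replicate 2 of IPC mouse 2 stood apart with 6110 genes past the filter, against 11520 in the library with the most. It had 542 normalized counts of Fabp7, against 2145 and 2304 in the other 2 replicates of that mouse, 78.9 of Sox9, against 611 and 751, and 0 reads of Nes. Without it Vim kept its call.

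**Figure D2:**
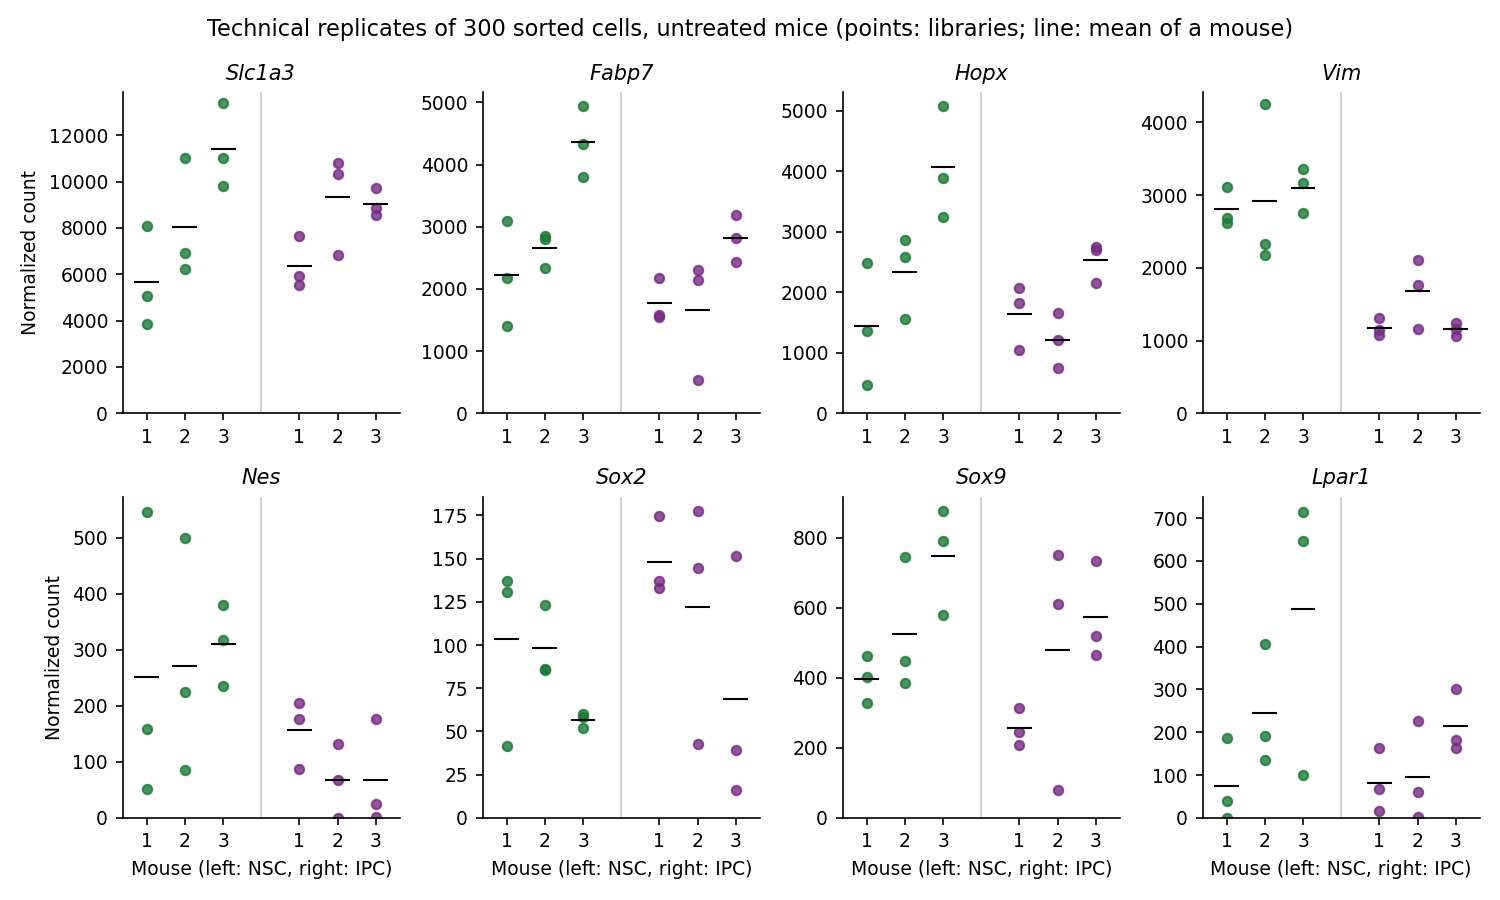
Normalized counts of the 8 genes in each technical replicate of 300 sorted cells from untreated mice, NSC libraries left and IPC libraries right of the line, with the mean of each mouse drawn as a bar. Vim libraries do not overlap between the populations, while Nes and Lpar1 libraries of 1 mouse are spread most widely within a mouse.

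Against whole DG of untreated mice, 4 of the 8 genes passed in NSCs and 5 in IPCs, and they did not all go the same way. Vim, Fabp7 and Nes were higher in NSCs and Slc1a3 was lower. Vim, Fabp7 and Sox2 were higher in IPCs, and Slc1a3 and Sox9 were lower. The shares of all 17638 genes that passed were 43.1% for NSCs (12.4% higher, 30.7% lower) and 42.5% for IPCs (11.4% higher, 31.1% lower), beside which the 4 and 5 of 8 members are to be read. The sizes depend on the scaling, since the median of all genes, -0.64 for NSCs and -0.68 for IPCs, was 0.10 and 0.06 after rescaling every library to 1 total. The calls of NSCs were then 4148 higher and 3553 lower, in place of 2184 and 5413, and those of IPCs 4030.0 higher and 3478 lower, in place of 2007 and 5490.0. The median log2 fold change of the 8 was 0.93 for NSCs and 0.15 for IPCs.

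Vim and Fabp7 were the members that passed as higher than whole DG in both sorted populations. Whole DG had 192, 182 and 204 normalized counts of Vim, all far below the sorted samples above. The log2 fold changes were 3.93 for NSCs (adjusted p = 1.57e-06, limma) and 2.77 for IPCs (adjusted p = 7.43e-06). Fabp7 had 913, 747 and 1110.0 normalized counts in whole DG, below every sorted sample, with log2 fold changes of 1.70 for NSCs (adjusted p = 0.00155) and 1.15 for IPCs (adjusted p = 0.0117). Without mouse 3 the IPC value of Fabp7 was 0.91, under the limit of 1.

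Slc1a3 went the other way. Whole DG had 22976, 23530 and 21556 normalized counts, above all 6 sorted samples. The log2 fold changes were -1.50 for NSCs (adjusted p = 0.000998) and -1.48 for IPCs (adjusted p = 0.00116). On the scale of library totals the distance was shorter, with 778 ± 261 CPM in NSCs, 764 ± 143 CPM in IPCs and 1300 ± 67.1 CPM in whole DG. After rescaling to 1 library total the log2 fold change was -0.80 for NSCs and -0.78 for IPCs, both at an adjusted p under 0.05 but short of the limit on size, as was the NSC value by edgeR (-0.97).

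Among the transcription factors, Sox2 was higher and Sox9 lower than in whole DG. Sox2 had 103, 98.1 and 56.8 normalized counts in NSCs, 148, 122 and 68.9 in IPCs and 53.0, 28.1 and 20.6 in whole DG. All sorted samples lay above whole DG, and the log2 fold changes were 1.38 for NSCs (adjusted p = 0.0624) and 1.74 for IPCs (adjusted p = 0.0263). Sox9 had 398, 526.3 and 749 normalized counts in NSCs, 256, 480.4 and 574 in IPCs, and 1002, 897 and 902 in whole DG. The groups did not overlap, and the log2 fold changes were -0.79 for NSCs (adjusted p = 0.0783) and -1.17 for IPCs (adjusted p = 0.0182). Rescaled to 1 library total, Sox9 gave -0.09 for NSCs and -0.45 for IPCs (adjusted p = 0.285), and by edgeR and DESeq2 its IPC value was -0.58 and -0.72 (adjusted p = 0.207 and 0.103), so its call rested on the scaling. The NSC value of Sox2 passed by edgeR, DESeq2, after rescaling and without the trend (1.38 to 2.05, adjusted p from 0.0113 to 0.0372) and without whole DG mouse 4 (1.75, adjusted p = 0.0488), and that of Sox9 without NSC mouse 3 (-1.03, adjusted p = 0.0448). The IPC call of Sox9 was also lost without IPC mouse 1 (-0.83) or whole DG mouse 4 (adjusted p = 0.0609), and that of Sox2 without any one of IPC mice 1 and 2 and whole DG mice 5 and 6 (adjusted p from 0.0576 to 0.0932).

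Of the remaining members, Nes passed in NSCs and Hopx and Lpar1 in neither population. Nes had 80.1, 28.1 and 165 normalized counts in whole DG, all below the NSC samples, with log2 fold changes of 1.92 for NSCs (adjusted p = 0.0341) and 0.30 for IPCs (adjusted p = 0.722), and the NSC call was lost on leaving out any one of 5 of the 6 mice (adjusted p from 0.0660 to 0.0933). Hopx had 1735, 1662 and 1734 in whole DG, inside the range of NSCs and of IPCs, with log2 fold changes of 0.48 for NSCs and 0.00 for IPCs, and the NSC value passed after rescaling (1.18, adjusted p = 0.0273). Lpar1 had 409.8, 412 and 369 normalized counts in whole DG, against 74.8, 244 and 487 in NSCs and 82.5, 96.1 and 215 in IPCs. Only its NSC samples overlapped whole DG, and its log2 fold changes were -0.93 for NSCs (adjusted p = 0.261) and -1.72 for IPCs (adjusted p = 0.0544), and the IPC value passed in the fit of IPCs and whole DG alone (adjusted p = 0.0144) and without IPC mouse 3 (-2.14, adjusted p = 0.0369).

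Among 14 astrocyte markers in untreated mice, 6 were lower in NSCs than in whole DG and 7 were lower in IPCs, with none higher. Of all genes, 30.7% were lower in NSCs and 31.1% in IPCs. The medians of the list were -1.02 for NSCs and -1.13 for IPCs, against -0.64 and -0.68 over all genes. As a sum of CPM, in which abundant markers weigh most, the list was not lower. The sum was 13113 ± 4112 for NSCs, 11707 ± 3811 for IPCs and 11418 ± 633 for tissue. The medians of the list were not computed after rescaling. The water channel gene Aqp4 had 43.9 ± 28.8 CPM in NSCs, 56.7 ± 30.3 CPM in IPCs and 228 ± 34.6 CPM in whole DG (log2 fold changes -3.28 and -2.84), and the transporter gene Slc1a2 had log2 fold changes of -1.77 and -1.53. Those of Fgfr3 were -5.32 and -5.25 and those of Aldh1l1 -5.45 and -5.36, with 0 reads of Aldh1l1 in all libraries of 1 NSC mouse. Of the 17 other radial glia-like genes tested, 4 were higher and 1 was lower in NSCs, and 3 were higher and 3 lower in IPCs. Gfap, the astrocyte filament that radial glia-like cells share, had 93.3 ± 31.3 CPM in NSCs, 77.5 ± 40.2 CPM in IPCs and 709 ± 25.7 CPM in whole DG (log2 fold changes -3.68 and -4.03, adjusted p = 0.000122 and 8.4e-05, limma). Hes1, a Notch target, was higher by 3.64 in NSCs and 3.39 in IPCs, and Sox1 by 4.36 in NSCs and 2.42 in IPCs on the log2 scale, each with under 2 CPM in whole DG.

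The LFPI experiment repeated these comparisons in other mice, and there the sorted cells related to whole DG in another way. Against whole DG of sham mice, 6 of the 8 genes passed in NSCs and in IPCs, where 39.9% and 44.4% of 18059 genes passed. Slc1a3, Sox9, Hopx, Fabp7 and Vim were higher in both sorted populations (background 15.6% for NSCs and 16.5% for IPCs), and Sox2 was lower in both (24.3% and 27.9%). The median log2 fold change of the 8 was 2.09 for NSCs, against -0.35 over all genes, and 1.84 for IPCs, against -0.50 over all genes. The values of the 2 experiments were normalized separately, so no test was made between them, and levels are set side by side across them only as CPM.

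Slc1a3 had 80201 and 36091 normalized counts in NSCs of the 2 sham mice, 76411, 29836 and 28130 in IPCs and 9564, 8271 and 8999.5 in whole DG. Every sorted sample lay above whole DG, and mouse 4 was by far the highest in both populations. The log2 fold changes were 2.59 for NSCs (adjusted p = 0.00489, limma) and 2.16 for IPCs (adjusted p = 0.00547). Sox9 had 6602 and 3283 normalized counts in NSCs, 4859, 2611 and 3104 in IPCs, and 602, 425 and 485 in whole DG, and mouse 4 again led. Its log2 fold changes were 3.22 for NSCs (adjusted p = 0.000615) and 2.77 for IPCs (adjusted p = 0.000547), with no overlap.

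Hopx, which had not passed against whole DG in untreated mice, had 8494 and 4673 normalized counts in NSCs, 7008, 7168 and 4995 in IPCs and 879, 798 and 837 in whole DG. The groups lay far apart, with a log2 fold change of 2.91 for both NSCs (adjusted p = 0.000291) and IPCs (adjusted p = 0.000131). An antisense gene with a count of its own, Hopxos, covers 27.2% of the exonic bases of Hopx, and counting without regard to strand cannot tell which of them a read there came from. Fabp7 had 3435 and 3059.6 normalized counts in NSCs, 2666, 4603 and 2556 in IPCs and 601, 755 and 509 in whole DG, with log2 fold changes of 2.40 for NSCs (adjusted p = 0.000793) and 2.36 for IPCs (adjusted p = 0.000403).

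Vim and Sox2 passed less firmly. Vim had 2363 and 4169.9 normalized counts in NSCs, 1814, 2616 and 3662 in IPCs and 1395, 513 and 1042 in whole DG, with log2 fold changes of 1.79 for NSCs (adjusted p = 0.0226) and 1.51 for IPCs (adjusted p = 0.0244) and no overlap with whole DG. Sox2 had 236 and 104 in NSCs, 212, 111 and 281 in IPCs and 465, 549 and 567 in whole DG, all sorted samples below tissue, with log2 fold changes of -1.74 for NSCs (adjusted p = 0.0290) and -1.48 for IPCs (adjusted p = 0.0310). By edgeR Sox2 missed the threshold in both (adjusted p = 0.0555 and 0.0541), and in IPCs after rescaling (0.0674). Their NSC calls were each lost without NSC mouse 6 (Vim, adjusted p = 0.136; Sox2, adjusted p = 0.153), without whole DG mouse 11 or 12 and, for Sox2, without whole DG mouse 10 (adjusted p from 0.0513 to 0.0894). Their IPC calls were lost without IPC mouse 5 or whole DG mouse 11 or 12, that of Vim without IPC mouse 6 and that of Sox2 without whole DG mouse 10 (adjusted p from 0.0554 to 0.0999). With LFPI mice in place of sham mice, a comparison chosen after the data had been seen, Sox2 had a log2 fold change of -0.79 for NSCs and -0.99 for IPCs, and Vim of 0.89 for IPCs.

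Lpar1 and Nes did not pass. Lpar1 had 837 and 169 normalized counts in NSCs, 397, 269.7 and 226 in IPCs and 209, 184 and 179 in whole DG, with log2 fold changes of 0.98 for NSCs (adjusted p = 0.257) and 0.60 for IPCs (adjusted p = 0.419), and IPCs did not overlap whole DG. Nes had 0 and 333 normalized counts in NSCs, 424, 226 and 191 in IPCs and 344, 104 and 164 in whole DG. The NSC library of sham mouse 4, with 0 reads of Nes, set its NSC value of -3.31 (95% interval -8.25 to 1.62). Without NSC mouse 6, only that library was left and the value was -7.51 (adjusted p = 0.00188), while Lpar1 came to 2.13 (adjusted p = 0.0105). A single NSC library is then assumed to vary like the other groups.

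**Figure D3:**
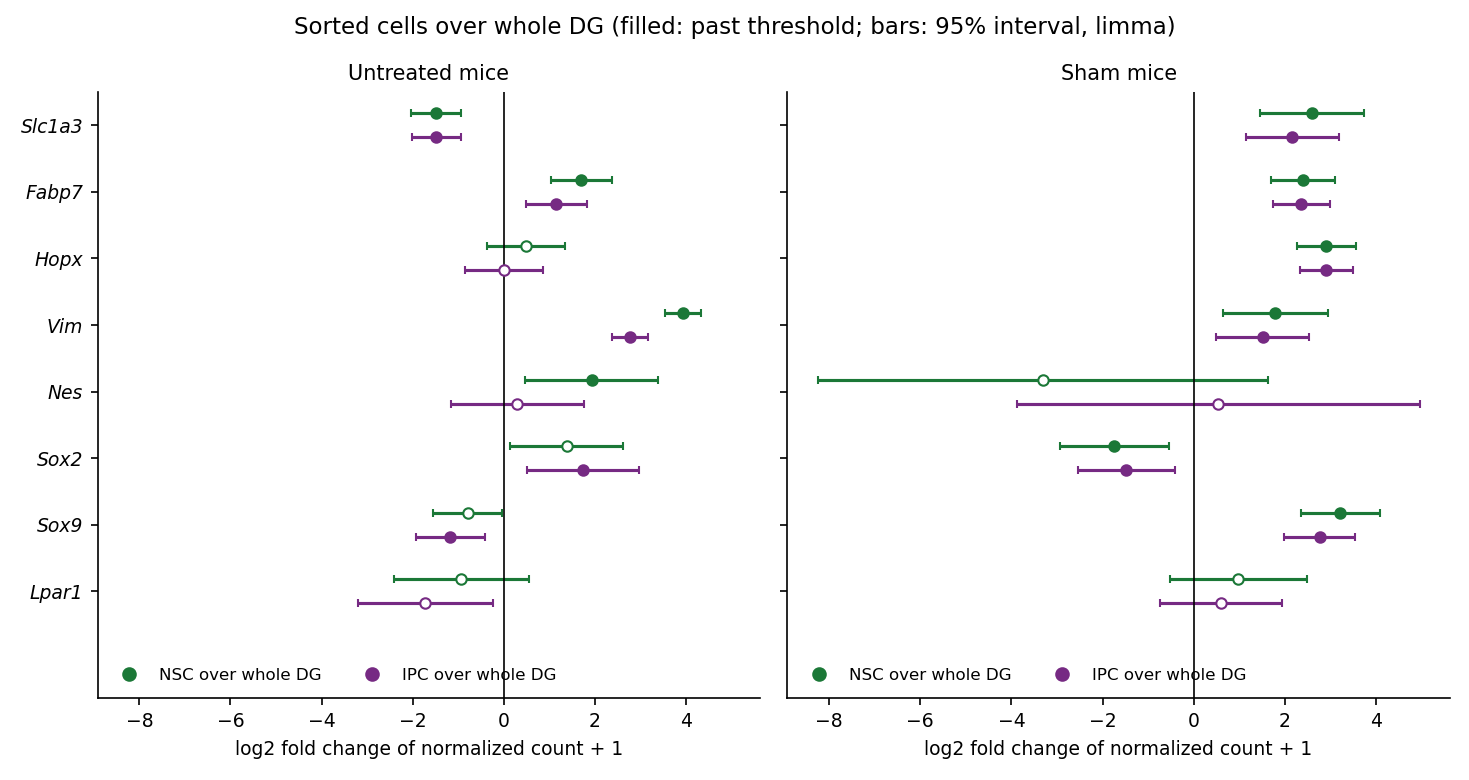
Log2 fold change of normalized count + 1 over whole DG for each gene in untreated mice (left) and sham mice (right), NSCs above IPCs, with 95% intervals and filled points where the limma test passed. Slc1a3 and Sox9 lie left of 0 in untreated mice and right of it in sham mice, Sox2 the reverse, while Fabp7 and Vim lie right of 0 in both.

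Slc1a3, Sox9 and Sox2 thus stood on opposite sides of whole DG in untreated and in sham mice. In mean CPM of untreated and then sham mice, Sox2 differed most in whole DG, with 1.95 (17 to 45 reads per library) and 34.6. It had 8.05 and 13.3 in NSCs and 10.5 and 16.6 in IPCs. Slc1a3 and Sox9 differed most in sorted cells. Slc1a3 had 778 and 4533 in NSCs, 764 and 3555 in IPCs and 1300 and 586 in whole DG. Sox9 had 51.9 and 386 in NSCs, 41.3 and 284 in IPCs and 53.5 and 32.99 in whole DG. Whether mice had surgery, the sequencing lanes and the whole DG libraries differ between the experiments. Where a column heading holds a library code, untreated whole DG libraries have the same one as sorted libraries, but those from whole DG in the LFPI experiment have another, whose meaning is not given in the sources used here. These differences cannot be told apart. The astrocyte list moved with them. Of its 14 members, 8 were higher in NSCs and 7 in IPCs of sham mice than in whole DG and none lower, with medians of 1.43 and 1.13. Their summed level was 46966 to 73981 CPM in NSCs, 34279 to 80431 CPM in IPCs and 8822 to 9921 CPM in whole DG of sham mice, whereas it was 9489.5 to 17583 CPM in NSCs, 9163 to 16089 CPM in IPCs and 10691 to 11845 CPM in whole DG of untreated mice, with no marker at 0 in a whole group.

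The summed level of the 8 members, most of it Slc1a3 (4533 of 6016 CPM on average in NSCs of sham mice), was 4240.1 to 7791 CPM in NSCs, 3749 to 6967 CPM in IPCs and 768 to 902 CPM in whole DG of sham mice, and 1209 to 2259 CPM in NSCs, 1096 to 1571 CPM in IPCs and 1481 to 1581 CPM in whole DG of untreated mice. Among named astrocyte markers, the gap junction genes Gjb6 and Gja1 were higher by 4.17 and 3.68 in NSCs and by 3.85 and 3.31 in IPCs on the log2 scale, the lipid carrier gene Apoe by 3.62 and 3.41, and the glycolytic gene Aldoc by 3.46 and 3.24. Of 20 other radial glia-like genes, 5 were higher and 1 lower in NSCs, and 5 higher and 2 lower in IPCs. They included the Notch effector Hes5 (3.63 in NSCs, 3.67 in IPCs), Thrsp, a regulator of lipid synthesis (3.36 and 3.44), and Prom1 (3.74 and 2.67), with adjusted p between 5.4e-05 and 0.000504 (limma). Sox5 was higher by 2.04 in NSCs, and Cdon, a co-receptor for hedgehog signals, was lower in IPCs with a value of -4.51 (adjusted p = 0.0455), which rests on at least 1 IPC mouse with 0 reads. Gfap had 1371 ± 153 CPM in NSCs, 1079 ± 396 CPM in IPCs and 1145 ± 272 CPM in whole DG of sham mice, and did not pass.

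**Figure D4:**
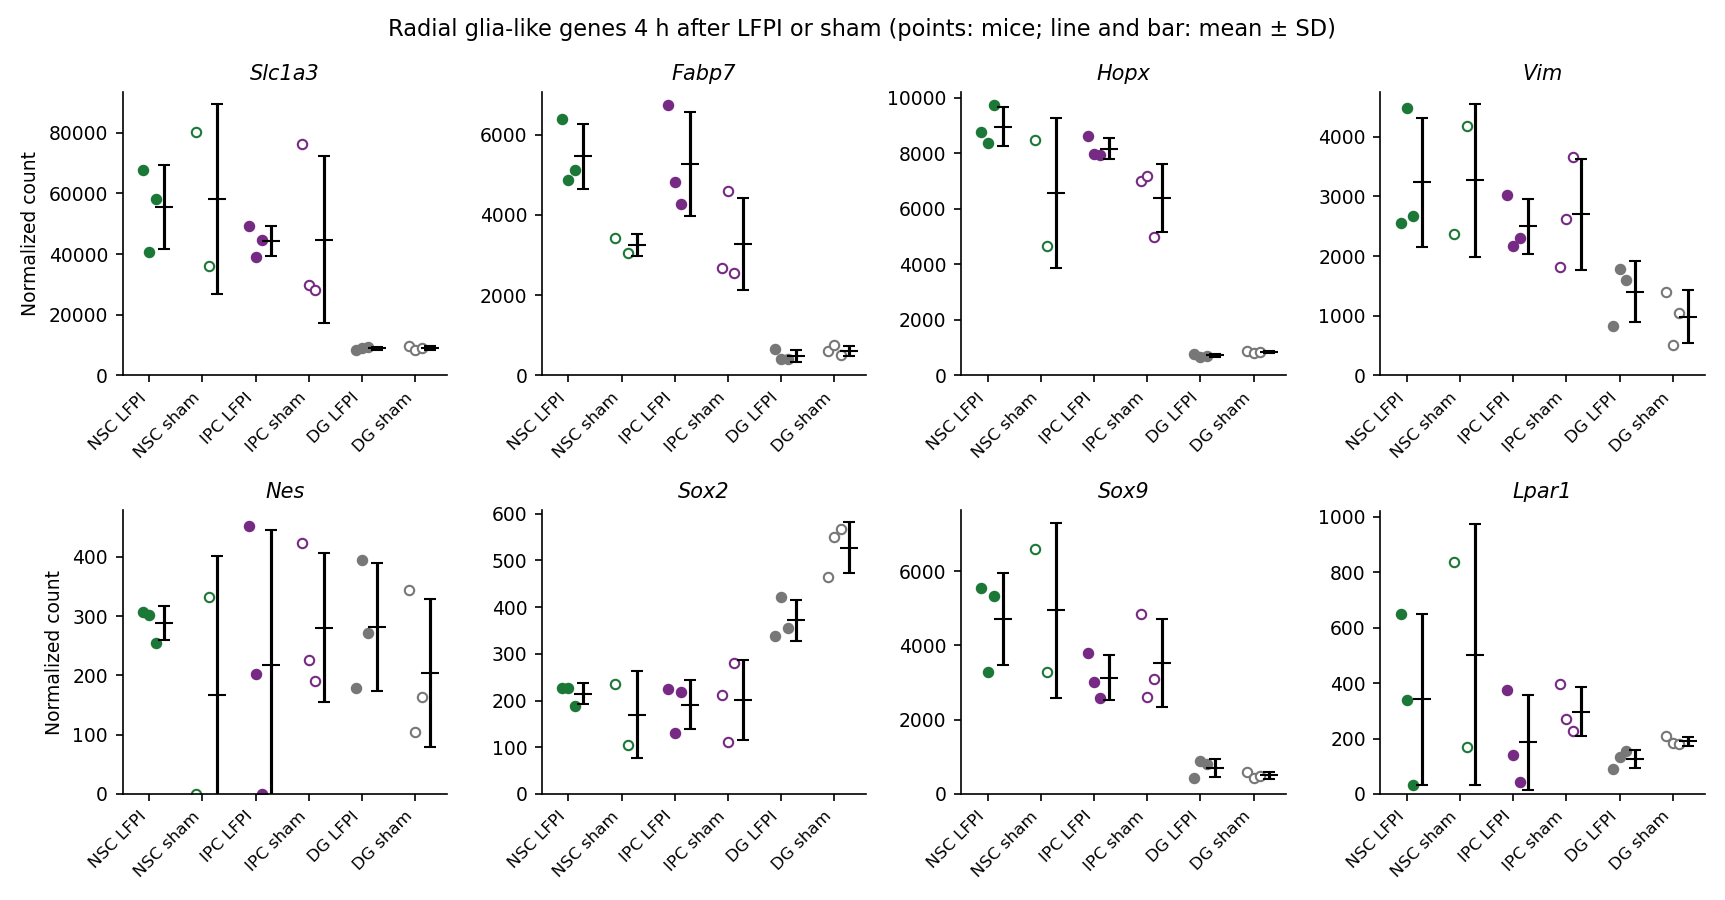
Normalized counts of the 8 genes in the LFPI experiment, 1 panel per gene, with 1 point per mouse for LFPI and sham mice of NSCs, IPCs and whole DG and the mean ± SD beside the points. Slc1a3, Sox9, Hopx and Fabp7 sit far above whole DG in all sorted groups, Sox2 sits below it, and 2 sorted samples lie at 0 for Nes.

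Between NSCs and IPCs of the LFPI experiment no member passed, and 0% of 17230 genes did (limma). At an unadjusted p under 0.05 there were 973 genes, none of them a member, and edgeR called 0 genes and DESeq2 161. Vim, higher in NSCs of untreated mice, had 2553, 4476 and 2667 normalized counts in NSCs and 3019.9, 2170.3 and 2294 in IPCs of LFPI mice, beside the sham values above. NSCs and IPCs overlapped, and the log2 fold change over both treatments was 0.31 (95% interval -0.24 to 0.86, adjusted p = 0.889, limma). The untreated value of 1.16 had a 95% interval of 0.76 to 1.55. The 2 intervals share only 0.76 to 0.86, and sharing a part does not show that the values agree. The difference between the experiments was not tested. Endothelial markers had a median log2 fold change of 0.24 here, against 0.09 over all genes. None of the 12 passed, as no gene did, and their part in the Vim values was not tested.

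Sox9 had the smallest p of the members, and Slc1a3, whose protein is the gate, leaned the same way. Sox9 had 5533, 3296 and 5333 normalized counts in NSCs and 3802, 3004 and 2592 in IPCs of LFPI mice, and for both genes NSCs were the higher of the pair in each of the 5 mice that gave both. The share of all genes with NSCs higher in each of these mice was not counted, so this is a description only. For Sox9 the log2 fold change was 0.51 (95% interval -0.04 to 1.06, adjusted p = 0.865), and for Slc1a3 it was 0.36 (95% interval -0.29 to 1.02, adjusted p = 0.890). Pairing by mouse called no member and no gene either. The medians were 0.19 for the 8 members and 0.09 for all genes.

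The LFPI experiment was made to compare injured with sham mice, and no member passed in any of the sources. The same was true of all genes tested, with 0% of 17274 called for NSCs, 0% of 16970.0 for IPCs and 0% of 17434 for whole DG (limma). At an unadjusted p under 0.05 there were 743 genes for NSCs, 752 for IPCs and 3468 for whole DG, edgeR called 0 in each, and DESeq2 called 247, 102 and 206. Without whole DG of sham mouse 10, 533 genes passed in whole DG, 366 higher and 167 lower in LFPI mice (3.06% of 17446), and no member was among them. Members under that unadjusted threshold were Fabp7 in NSCs and in IPCs, and Sox2 and Lpar1 in whole DG. The whole DG values are to be read beside the 3468 of 17434 genes under it there. How many of all genes had LFPI and sham samples without overlap was not counted, so a lack of overlap below is a description only.

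Fabp7 had 6385, 4872 and 5122 normalized counts in NSCs of LFPI mice, against 3435 and 3059.6 in sham mice. All 3 LFPI samples lay above both sham samples, with a log2 fold change of 0.74 (95% interval 0.22 to 1.26, p = 0.0120, adjusted p = 0.944, limma). In IPCs it had 6740.1, 4819 and 4261 in LFPI mice, against 2666, 4603 and 2556 in sham mice, where sham mouse 5 lay within the LFPI range, with a log2 fold change of 0.71 (95% interval 0.03 to 1.40, adjusted p = 0.915). Whole DG had 670, 409 and 399.8 in LFPI mice and 601, 755 and 509 in sham mice, a log2 fold change of -0.36 (95% interval -0.85 to 0.14). Sorted libraries of LFPI mice were run on lanes 3 and 4 with 15396980 to 21642781 reads in genes, and those of sham mice on lanes 5 and 6 with 9622762 to 13115310, so lane, depth and treatment cannot be told apart there.

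Hopx went the same way, with 8756, 8387 and 9757 normalized counts in NSCs of LFPI mice, against 8494 and 4673 in sham mice (log2 fold change 0.51, 95% interval -0.16 to 1.17). IPCs had 8608, 7975 and 7928 in LFPI mice and 7008, 7168 and 4995 in sham mice, with no overlap and a log2 fold change of 0.37 (95% interval -0.08 to 0.82, adjusted p = 0.915). In whole DG the values were 770, 676 and 717 in LFPI mice and 879, 798 and 837 in sham mice, also without overlap but in the other direction, with a log2 fold change of -0.22 (95% interval -0.46 to 0.03, adjusted p = 0.304).

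Slc1a3 gave the narrowest limits in tissue. Whole DG had 8401, 9151 and 9415 normalized counts in LFPI mice and 9564, 8271 and 8999.5 in sham mice, with a log2 fold change of 0.01 (95% interval -0.22 to 0.24). In sorted cells LFPI samples lay inside the sham range, with 67806, 40630.3 and 58101 in NSCs of LFPI mice (log2 fold change 0.01, 95% interval -0.88 to 0.90) and 49172, 39164 and 44574 in IPCs of LFPI mice (0.14, 95% interval -0.72 to 1.00). Sox9 values of LFPI and sham mice overlapped in all 3 sources, with a log2 fold change of -0.02 for NSCs, -0.14 for IPCs and 0.43 for whole DG.

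In whole DG Sox2 had 338, 422 and 355 normalized counts in LFPI mice and 465, 549 and 567 in sham mice. The groups did not overlap, with a log2 fold change of -0.51 (95% interval -0.82 to -0.19, p = 0.00554, adjusted p = 0.145, limma). Without sham mouse 10 it was -0.59 (adjusted p = 0.0424), short of the limit on size. Lpar1 had 90.2, 134 and 155 in LFPI mice and 209, 184 and 179 in sham mice, again without overlap, with a log2 fold change of -0.62 (95% interval -1.11 to -0.14, adjusted p = 0.176). In sorted cells Sox2 overlapped between treatments, with 228, 227 and 188 normalized counts in NSCs of LFPI mice against 236 and 104 in sham mice, and 224, 130.2 and 219 in IPCs of LFPI mice against 212, 111 and 281 in sham mice. Lpar1 is also made by oligodendrocytes, whose markers had negative log2 fold changes in whole DG in 10 of 10 genes (median -0.39, none past the threshold), with a summed level of 1306 to 1579 CPM in LFPI mice and 2218 to 2525 CPM in sham mice and no marker at 0. Their part in the Lpar1 values was not tested.

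Nes and Lpar1 could not be read in sorted cells at 1 library per mouse. Nes had 307, 302 and 255 normalized counts in NSCs of LFPI mice and 0 and 333 in sham mice, and 452, 202 and 0 in IPCs of LFPI mice and 424, 226 and 191 in sham mice. Its log2 fold changes of 3.98 in NSCs (95% interval -1.24 to 9.19) and -2.55 in IPCs (95% interval -7.50 to 2.40) both turned on 1 library with 0 reads. Lpar1 had 651, 340.4 and 33.6 in NSCs and 376, 139.5 and 42.7 in IPCs of LFPI mice, with mouse 3 lowest in both, and its intervals were as wide as -4.08 to 2.21 in NSCs and -3.03 to 0.77 in IPCs. In whole DG, Nes had 179, 395 and 271 in LFPI mice and 344, 104 and 164 in sham mice (log2 fold change 0.56). Vim, with values that overlapped between treatments in all 3 sources, had a log2 fold change of -0.01 for NSCs, -0.07 for IPCs and 0.55 for whole DG.

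**Figure D5:**
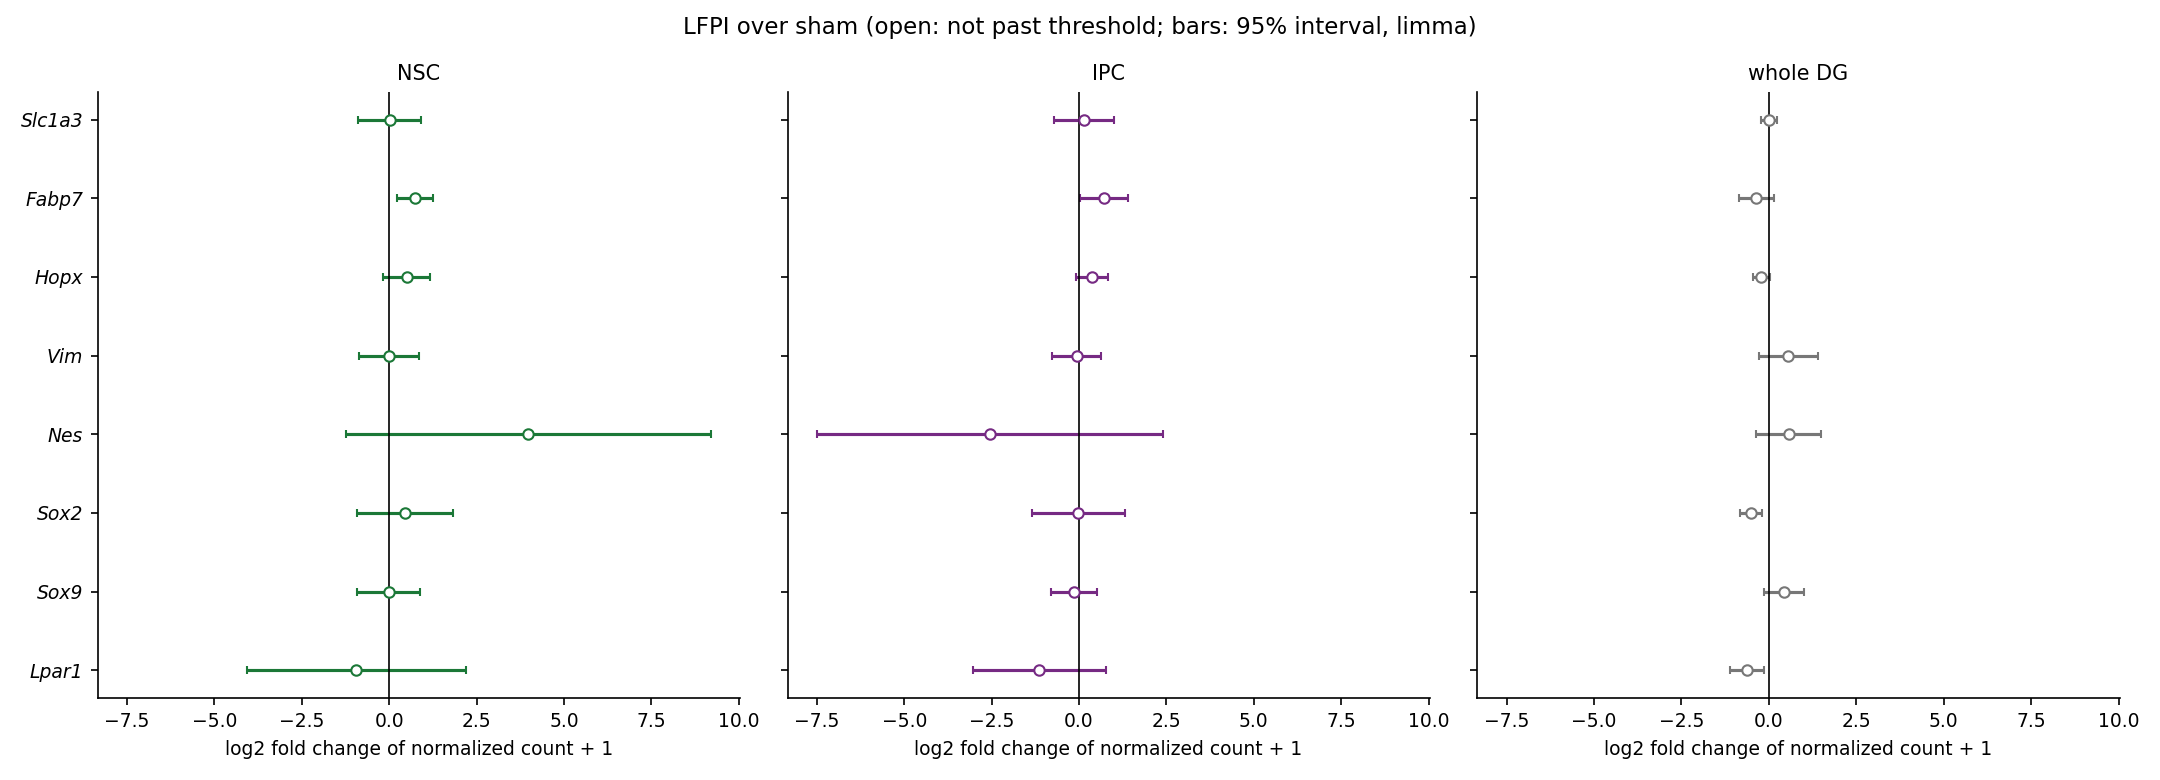
Log2 fold change of normalized count + 1, LFPI over sham, for each gene in the 2 sorted populations and in tissue, with 95% intervals. No point passed the limma test, Fabp7 is right of 0 in both sorted populations, and Nes has the widest intervals.

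The response to LFPI was also compared between NSCs and IPCs as an interaction. No member and no gene of 17230 passed (limma), with 565 genes at an unadjusted p under 0.05 and none of them a member, 0 called by edgeR and 130 by DESeq2. For Fabp7 the difference of responses was 0.03 on the log2 scale (95% interval -0.83 to 0.89) and for Hopx 0.13 (95% interval -0.61 to 0.88).

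Over the 18 NSC and IPC libraries of untreated mice, the genes with the pattern most like that of each member were taken by the Pearson correlation of log2(normalized count + 1), among 7498 or 7499 genes with a mean of at least 100 and no library at 0. Libraries of a mouse share its cells, and the same pair was then read over the 11 sorted libraries of the LFPI experiment. The members themselves could be at 0. Nes was at 0 in the technical replicate of IPC mouse 2 that stood apart, which was also low in Fabp7 and Sox9. It was at 0 too in NSCs of sham mouse 4 and IPCs of LFPI mouse 3. Such libraries weigh heavily on r, and r without them was not computed. Slc1a3 was most like Aldoc (r = 0.89, and 0.69 in the LFPI experiment), the metallothionein gene Mt3 (0.88 and 0.39) and the peroxiredoxin gene Prdx6 (0.84 and 0.66). Hopx was most like its antisense neighbour Hopxos (0.99 and 0.91), then the secreted chaperone gene Clu (0.89 and 0.70) and Apoe (0.89 and 0.66). Fabp7 was most like Hsp90b1 (0.90 and -0.23), Ndufb10 (0.88 and 0.04) and Dbi, which encodes an acyl-CoA-binding protein (0.88 and 0.71).

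For the other members the closest genes were from many functions. After Cd93 (r = 0.95, and 0.48 in the LFPI experiment), Vim was most like Sptbn1 (0.92 and 0.49) and Atox1 (0.92 and 0.22). Sox9 was most like Ppp3r1 (0.90 and -0.20), 1110034G24Rik (0.90 and -0.48) and Rab6a (0.89 and 0.30), and Sox2 like Drosha (0.77 and 0.45), Pomt1 (0.75 and -0.15) and Snhg6 (0.74 and -0.10). Nes was most like Acsl5 (0.92 and 0.24), Ap3m2 (0.86 and -0.11) and Hspb8 (0.85 and -0.02). Lpar1 was most like Hopx (0.87 and -0.04), Efhd2 (0.85 and 0.29) and the connexin gene Gjb6 (0.85 and -0.05).

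Among the 28 pairs of members, 21 had a positive correlation over the 18 untreated libraries (median r = 0.25) and 16 over the 11 libraries of the LFPI experiment (median r = 0.08). The share of positive pairs and the median r over all genes were not computed, so these counts are not a result about the members. Hopx and Fabp7 had r = 0.72 and 0.73 in the 2 sets, and Slc1a3 and Hopx 0.66 and 0.57. Slc1a3 and Sox9 had 0.16 in the untreated set and 0.88 in the LFPI experiment, the highest there, while Sox9 and Fabp7 had 0.79 and 0.05.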

How the data were processed

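RNA was sequenced from NSCs and IPCs sorted from the DG and from whole DG, with 9622762 to 21642781 reads in genes per sorted library and 9306038 to 14862308 per whole DG library. Per the labels, CASAVA 1.8.2 and HISAT2 2.0.6 were used, and they name GRCh38, a human build, while the study's methods state alignment to GRCm38 and counting over GENCODE genes without regard to strand. The deposited signal values are counts per gene that the authors divided by each library's DESeq2 size factor (normalized counts), in one table unfiltered and in another kept only for the libraries in which CLEAR passed the gene, except that the 6 libraries made from whole DG of LFPI and sham mice hold every gene there too. Of 50600 rows, 678 with 310 repeated symbols were left out. Whole read counts were recovered from 100% of values (within 0.05). In 1 column the heading matched no sample in the labels, and it was not used. That column displaces the line of sample titles in the unfiltered table of the LFPI experiment, so its columns were matched by the library names that the CLEAR table pairs with titles. Of the untreated libraries, 7 were combined from 2 runs by the authors.

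Technical replicates of a mouse were averaged. limma 3.58.1 (R 4.3.3, eBayes with trend, two-sided) was run on log2(normalized count + 1), which understates the change of low genes, for genes with a mean of at least 10, with Benjamini-Hochberg adjustment over all of them and calls at an adjusted p under 0.05 if the log2 fold change was 1 or more in size. Untreated groups shared 1 spread, as did the sham groups and, for NSCs against IPCs and the interaction, the 4 sorted groups of the LFPI experiment. LFPI was compared with sham within each source. edgeR 4.0.16 (quasi-likelihood) and DESeq2 1.42.0 on the recovered reads, pseudocounts of 0.5 and 10, the CLEAR tables, every gene above 0, library totals, no trend, other groupings, each mouse left out and the mouse as a block were alternatives. Scripts were tested on simulated data. The members and the gene lists were chosen with earlier results of these data known. Genes named outside the 8 are those of the 2 glial lists past the threshold with the largest change (up to 4 per comparison) and the 3 most correlated per member, and Ly6c1, Ocln and the values of Gfap in sham mice were named after their values were seen. A gene that this rule also takes is not reported here.

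NSCs and IPCs of a number came from the same animal by the labels, so mice pair the samples. Deviations from the group means of the NSCs and IPCs of a mouse correlated at 0.02 to 0.06 in the 3 untreated mice and 0.05 to 0.11 in the 5 mice of the LFPI experiment. Nothing states that samples of a group were prepared on separate days, and p-values measure the spread between these mice. Where a mouse gave a single library, as in the LFPI experiment and in whole DG, that spread also holds the variation between libraries. Other values came from Python 3.11.15 with numpy 2.4.6, pandas 2.3.3 and matplotlib 3.10.9.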

Additional observations from a re-analysis of the deposited data

Results flagged for a closer look

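In 7 cases every sample of a sorted population lay on one side of whole DG in untreated mice and on the other side in sham mice of the LFPI experiment. The share of all genes that did so was not counted, so the 7 cases are not a result about the members. Of all genes, 43.1% passed for NSCs and 42.5% for IPCs over untreated whole DG, and 39.9% and 44.4% over sham whole DG. The tables were normalized separately, and the difference between the experiments was not tested.

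For NSCs over whole DG, Slc1a3 had a log2 fold change of -1.50 in untreated mice and 2.59 in sham mice, Sox9 of -0.79 in untreated mice and 3.22 in sham mice, and Sox2 of 1.38 in untreated mice and -1.74 in sham mice. For IPCs over whole DG, Slc1a3 had -1.48 in untreated mice and 2.16 in sham mice, Sox9 -1.17 in untreated mice and 2.77 in sham mice, and Sox2 1.74 in untreated mice and -1.48 in sham mice. Lpar1 in IPCs had -1.72 in untreated mice and 0.60 in sham mice, though neither value passed its own test. The untreated NSC values of Sox9 and Sox2 did not pass either (adjusted p = 0.0783 and 0.0624, limma). With every library rescaled to 1 total the signs of these values held, though untreated Sox9 in NSCs kept little of its size. In CPM, untreated Sox9 was 37.2 to 68.8 in NSCs, 24.3 to 54.8 in IPCs and 51.3 to 57.6 in whole DG, which overlap. Sox2 in whole DG was 1.17 to 3.05 CPM in untreated mice and 29.8 to 37.6 CPM in sham mice.

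By the gap between the highest or lowest library and its neighbour, none was an outlier in the 16 sets looked at, each of 1 member in the 9 NSC or 9 IPC libraries of untreated mice, where chance gives about 1 in 20. This includes the technical replicate of IPC mouse 2 with the fewest genes past the CLEAR filter.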

How the results depend on the processing

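Under the settings other than leaving out a mouse, 800 values of single members kept direction and side of the threshold. With direction kept, 15 lost a call and 7 gained one. Another 15 turned direction, as follows. Of NSCs over IPCs in untreated mice, Slc1a3 was 0.041 by edgeR, 0.049 by DESeq2 and 0.023 without the technical replicate that stood apart. Of NSCs over IPCs in the LFPI experiment, Nes was 2.67 and Sox2 0.20 in LFPI mice alone and Hopx -0.0016 in sham mice alone. With LFPI mice in place of sham, Nes over whole DG was 0.10 for NSCs and -2.57 for IPCs (these 3 settings were chosen after seeing the data). Of LFPI over sham, Slc1a3 was -0.0022 when rescaled, -0.058 by edgeR and -0.060 by DESeq2 in NSCs, -0.0026 by edgeR and -0.0086 by DESeq2 in IPCs, and -0.026 when rescaled in whole DG. For paired samples, the replicate block gave Fabp7 -0.0082 in the interaction, and it changed no call of a member beside that of Vim.

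The count of members past the threshold was 0 for NSCs over IPCs in untreated mice without the trend, with the replicate block and in a fit of NSCs and IPCs alone, against 1, and 0 to 1 with a mouse left out. For IPCs over untreated whole DG it was 3 with CLEAR values in every library and 3 when rescaled, against 5, and 3 to 5 with a mouse left out. With CLEAR values Sox2 and Sox9 were not among the 4 members tested, each lacking a value in 1 of 9 IPC libraries. The cause of the other changes was not tested. It was 4 to 6, against 6, for either population over sham whole DG, and no member passed LFPI over sham or the interaction in any setting.

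Leaving out mice turned the direction of values that had not passed. Of NSCs over IPCs, the ranges were -0.19 to 0.080 for Slc1a3 in untreated mice, and in the LFPI experiment -2.80 to 1.67 for Nes, -0.28 to 0.41 for Sox2, -0.11 to 0.20 for Hopx and -0.049 to 0.19 for Fabp7. Of IPCs over untreated whole DG they were -0.37 to 0.89 for Nes and -0.28 to 0.26 for Hopx, and of NSCs over sham whole DG -7.51 to 0.88 for Nes and -0.17 to 2.13 for Lpar1. Of LFPI over sham in NSCs they were -0.21 to 8.17 for Nes, -0.56 to 0.59 for Slc1a3, -0.42 to 0.40 for Vim, -0.15 to 1.03 for Sox2, -0.52 to 0.49 for Sox9 and -2.09 to 0.32 for Lpar1. In IPCs they were -4.21 to 0.20 for Nes, -0.11 to 0.61 for Slc1a3, -0.33 to 0.18 for Vim, -0.39 to 0.27 for Sox2 and -0.33 to 0.12 for Sox9, and in whole DG -0.047 to 0.057 for Slc1a3. In the interaction they were -0.45 to 0.085 for Slc1a3, -0.29 to 0.35 for Vim, -0.42 to 0.96 for Sox2, -0.32 to 0.37 for Sox9, -0.13 to 0.49 for Hopx, -0.24 to 0.23 for Fabp7 and -0.77 to 1.12 for Lpar1.

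Counts over all genes moved too. NSCs over IPCs in untreated mice gave 288, against 134 of 4055 genes with CLEAR values, 183 with every gene above 0, 188 without the trend, 1141 by DESeq2, 489 without the technical replicate that stood apart, 442, 542 and 370.0 without mouse 1, 2 or 3, 2 for NSCs and IPCs alone and 0 with the block. With CLEAR values in every library, 1607 genes passed for NSCs and 1483 for IPCs over untreated whole DG, of 4055 tested, and 4430.0 and 4693 over sham whole DG, of 9719. LFPI over sham, at 0, gave 29 genes in NSCs and 38 in IPCs without the trend, 30.0 and 76 with all 6 groups sharing 1 spread, and, in whole DG, 2 with every gene above 0 and 533 without sham mouse 10. NSCs over IPCs of the LFPI experiment gave 11 and the interaction 5 without the trend. No member was among the genes called for LFPI over sham.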

Other observations

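Other markers differed between LFPI and sham mice in the sorted cells, none past the threshold in limma, as no gene was. Lane, depth and treatment cannot be told apart in these libraries. All 8 fibroblast and leptomeningeal markers had negative log2 fold changes of LFPI over sham, with medians of -3.04 in NSCs and -2.96 in IPCs, against -0.02 and -0.04 over all genes. Their summed level was 342 to 1825 CPM in NSCs of LFPI mice and 3085 to 7425 CPM in NSCs of sham mice, and 67.6 to 244 CPM in IPCs of LFPI mice and 779.6 to 6395 CPM in IPCs of sham mice. Vim, which such cells also make, had overlapping values in the same samples, and their part in it was not tested.

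All 6 oligodendrocyte precursor markers had positive log2 fold changes of LFPI over sham, with medians of 1.46 in NSCs and 1.44 in IPCs. Their summed level was 595 to 861 CPM in NSCs of LFPI mice and 405 to 594 CPM in NSCs of sham mice, and 504 to 586 CPM in IPCs of LFPI mice and 316 to 470.2 CPM in IPCs of sham mice.

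Intermediate progenitor and neuroblast markers summed to 6008 to 7435 CPM in IPCs of untreated mice, against 652 to 704 CPM in whole DG, and to 2709 to 4637 CPM in NSCs. Pericyte and smooth muscle markers summed to 5135 to 7629 CPM in NSCs and 7286 to 8713 CPM in IPCs of untreated mice, against 95.6 to 138 CPM in whole DG, although no pericyte antigen is named among those gated out.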
